A study of Homo sapiens with 24 samples.

Results

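The response of 2 human acute myeloid leukemia (AML) cell lines to the kinase inhibitor R406 was compared gene by gene. The quantity of interest is the R406 effect in MOLM-14 (R406 minus DMSO) minus the R406 effect in HL-60 (R406 minus DMSO), called the difference below. Its members are every probe set that carries exactly 1 gene symbol, 19724 of the 22277 on the array, and 1 probe set stood for each of 12165 genes. The 12 arrays used, of 24 in the series, form 4 groups of 3, which are MOLM-14 cells given 4 µM R406 for 24 h, MOLM-14 cells given dimethyl sulfoxide (DMSO, the solvent) for 24 h, HL-60 cells given 4 µM R406 for 24 h and HL-60 cells given DMSO for 24 h. The dose is that of the treatment protocol in the labels, and the design text of the series gives 4 mM instead. Of the lines, MOLM-14 is usually described as monocytic and carries both an MLL-AF9 fusion and a FLT3 internal tandem duplication, which keeps this receptor kinase active, while HL-60 is usually described as promyelocytic and carries extra copies of MYC. Each cell type is represented by a single line, so the lines differ in lineage, driver lesions and much else at once. The other arrays of the series hold KG-1 and U937 cells and entered 1 alternative fit only.

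R406 is the active form of fostamatinib. It was developed as an inhibitor of SYK, the tyrosine kinase that immune receptors, Fc receptors and integrins recruit through phosphorylated ITAM motifs, and it also inhibits other kinases, FLT3 among them. SYK and FLT3 both feed the RAS and ERK cascade, whose readouts at the transcript level include immediate early genes such as EGR1 and feedback inhibitors such as DUSP6 and the Sprouty genes, and growth signals further downstream reach MYC, the cyclins and the genes of DNA replication and mitosis. In myeloid leukemia lines, leaving the cell cycle often goes together with the gain of monocyte or granulocyte genes, which is why differentiation genes are described beside the cell cycle genes.

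Deposited intensities on the 12 arrays ran from 3.66 to 12362, with array medians of 19.1 to 20.9, and replicates of a group correlated at r = 0.994 to 0.998 across probe sets. Over the 12165 genes the median of the mean intensity was 41.0 and the lower quartile 9.18, so intensities near or under 10 lie in the dim range of these arrays, where folds are understated. The number of arrays limits the precision. A called gene has a Benjamini-Hochberg adjusted p under 0.05, over all probe sets, in limma's moderated test on log2 of the intensity plus 1. Effects and differences are log2 values ± SE from 3 arrays a group, and the fit has 1 variance per gene, which makes its SE equal in both lines. Treatment was in triplicate per the labels, which do not say whether the triplicates were separate cultures kept apart, so the p-values rest on the spread among these samples only, and that spread may be technical. In bulk RNA, fewer cells of a type and less RNA per cell cannot be told apart. Of 9 listed MOLM-14 markers, 4 (FLT3, MEIS1, MEF2C and IRF8) were higher in MOLM-14 than in HL-60 under DMSO, CD14 and ITGAL were lower, and CD68, FCGR1A and CSF1R had no called line difference. Of 9 listed HL-60 markers, 4 (MPO, PRTN3, MYC and CEBPE) were lower in MOLM-14 than in HL-60, AZU1, CTSG, RNASE2 and CFD were higher, and ELANE had no called line difference. FLT3 averaged 914 ± 12.3 in MOLM-14 and 114 ± 5.53 in HL-60 (SD, n = 3 each), and the HOX cofactor gene MEIS1 averaged 295 ± 15.8 and 7.99 ± 0.76. The promyelocyte peroxidase gene MPO averaged 44.0 ± 3.68 in MOLM-14 and 6416 ± 114 in HL-60. The monocyte marker CD14 went against the usual description of MOLM-14 as monocytic, with 7.198 ± 0.40 in MOLM-14 and 279 ± 59.7 in HL-60. SYK itself was present in all 4 groups and its difference missed the threshold (-0.22 ± 0.10, adjusted p = 0.0872 in limma, 95% interval -0.43 to -0.01). The other probe set of SYK had effects of 0.05 in both lines and a difference of 0.005 (adjusted p = 0.984 in limma). ITGB3, the integrin beta 3 gene that the series title names, stayed in the dim range in all 4 groups, with mean intensities of 8.85 to 9.37.

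R406 moved more genes in MOLM-14 than in HL-60, and the effects in both lines were only weakly related. In MOLM-14, 3551 genes rose (29.2% of genes tested) and 2948 fell (24.2%), and in HL-60, 769 rose (6.32%) and 801 fell (6.58%). All counts of list members below are to be read against these shares. The difference itself was called for 5156 genes (42.4%), of which 2611 were higher (21.5%) and 2545 lower (20.9%) in MOLM-14. At least 2-fold differences were reached by 755 of the higher (6.21%) and 1063 of the lower genes (8.74%). The median absolute effect was 0.29 in MOLM-14 and 0.11 in HL-60. Across the 12165 genes the effects in the lines, which share no array, correlated at Pearson's r = 0.15 and Spearman's rho = 0.20, as a description, since genes are not independent replicates. The median difference over all genes was 0.06.

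Genes called in both lines numbered 1282 (10.5%), and 393 of them moved in opposite directions (3.23%) while 889 moved the same way (7.31%). Of the opposite genes, 172 rose in MOLM-14 and fell in HL-60 (1.41%), and 221 fell in MOLM-14 and rose in HL-60 (1.82%). In 383 of the 393, all 3 R406 arrays lay beyond all 3 DMSO arrays in both lines (3.15%). Over all genes this held for 57.7% in MOLM-14 and 32.8% in HL-60, each line taken alone, and the share for both lines at once is not given. The 393 were called on these same arrays, so the separation follows largely from the call and is no further support for it. In 311 of the 393 the smaller of both effects was under 1.5-fold (2.56%). Genes were taken to have moved alike where both effects were called with 1 sign and the 95% interval of the difference lay within 1.5-fold either way, which held for 194 genes that rose (1.59%) and 166 that fell (1.36%), together 360 (2.96%). A further class moved the same way but with a called difference, 195 up (1.6%) and 334 down (2.75%), and 498 of these had the larger effect in MOLM-14 (4.09%) and 31 in HL-60 (0.255%). The alike class and that class share 34 genes (0.279%), whose difference was called yet lay within 1.5-fold. Single arrays moved some of these counts by over 1.5 times. The genes rising alike were 129 without HL-60 R406 replicate 1, and those falling alike were 109 without HL-60 R406 replicate 2 and 103 without HL-60 DMSO replicate 2. Of the genes that moved the same way with a called difference, those up were 126 without HL-60 R406 replicate 3 and 124 without HL-60 DMSO replicate 3, and those down were 219 without HL-60 R406 replicate 1. The plot of the effects in each line shows these classes.

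**Figure D1:**
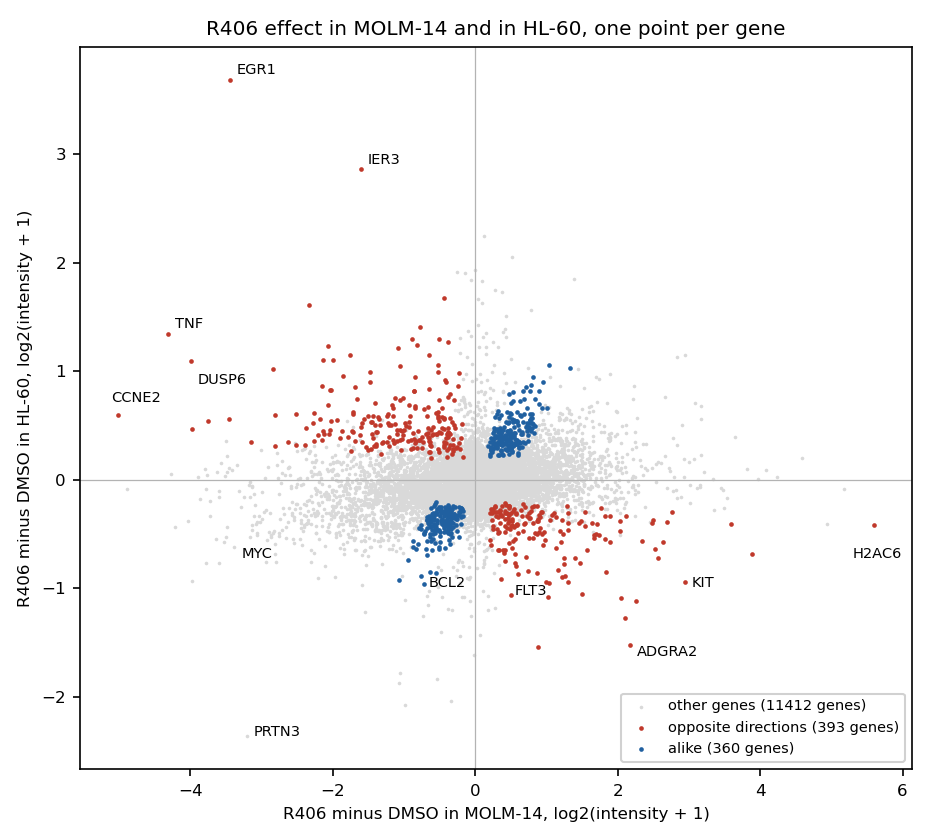
Each point is 1 of 12165 genes, with the R406 minus DMSO effect in MOLM-14 on the x axis and in HL-60 on the y axis, both on log2 of the intensity plus 1 and from 3 arrays a group. Red points are the 393 genes called in opposite directions, blue points the 360 that moved alike and grey points the rest, EGR1 and IER3 have the highest effects in HL-60, and H2AC6 lies furthest to the right.

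EGR1, an immediate early zinc finger transcription factor, had the lowest difference of all genes. Its intensities were 12.97, 12.7 and 14.8 in MOLM-14 R406 arrays, against 186, 128 and 162 in MOLM-14 DMSO arrays, and 686, 682 and 526 in HL-60 R406 arrays, against 46.9, 62.7 and 36.9 in HL-60 DMSO arrays. The groups of neither line overlapped, as the rule by which this gene was chosen for naming requires. The line with more EGR1 under DMSO had the less under R406. EGR1 fell 10.9-fold in MOLM-14 (-3.45 ± 0.18) and rose 12.9-fold in HL-60 (3.69 ± 0.18), a difference of -7.14 ± 0.25 (adjusted p = 2.74e-10 in limma). The promoter of EGR1 is printed because it holds the element for which immediate early genes are known, the CArG box bound by serum response factor. In the 250 bases before the start of EGR1, from RefSeq's GRCh38.p14 at chr5:138465229-138465478 on the plus strand, capitals mark 2 CArG boxes.
EGR1: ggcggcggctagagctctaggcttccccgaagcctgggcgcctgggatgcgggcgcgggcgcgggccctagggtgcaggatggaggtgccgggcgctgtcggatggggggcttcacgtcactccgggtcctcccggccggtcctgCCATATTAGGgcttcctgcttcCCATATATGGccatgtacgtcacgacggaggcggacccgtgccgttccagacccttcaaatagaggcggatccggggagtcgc
A CArG box was found in 1.16% of 35116 promoter windows of this length in RefSeq's table, searched on both strands, and in 1 of 24 windows of the immediate early list, that of EGR1.

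IER3, an immediate early gene of stress and survival signalling, behaved like EGR1 at a similar DMSO level in both lines. It had 25.8, 20.9 and 26.7 in MOLM-14 R406 arrays, against 71.9, 78.2 and 79.2 in MOLM-14 DMSO arrays, and 547, 656 and 547 in HL-60 R406 arrays, against 73.0, 81.6 and 82.5 in HL-60 DMSO arrays. No array of one treatment reached those of the other in either line, as the same rule requires. The difference was -4.47 ± 0.15 (adjusted p = 1.73e-10 in limma). DUSP6, the phosphatase that ERK induces and that switches ERK off, was at 15.7, 15.1 and 19.9 in MOLM-14 R406 arrays, against 286, 268 and 293 in MOLM-14 DMSO arrays. In HL-60 it was at 717, 674 and 594 under R406, against 339, 297 and 289 under DMSO. DUSP6 levels of the lines lay far apart under R406 and were near equal under DMSO, with effects of -3.99 in MOLM-14 and 1.10 in HL-60 and a difference of -5.09 ± 0.15 (adjusted p = 1.15e-10 in limma), and all 3 of its probe sets moved this way.

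The list of ERK output and feedback genes carried the same pattern in part. Of 19 measured members, 11 fell and 0 rose in MOLM-14, and 7 rose and 0 fell in HL-60 (median effects -0.55 and 0.21, against 0.07 and -0.003 over all genes). DUSP5, DUSP6, SPRY4, SPRED2 and ETV5 were called in opposite directions, 3 instead of 5 genes without HL-60 R406 replicate 1 or without HL-60 DMSO replicate 1. Another probe set of SPRED2 had effects of 0.33 in MOLM-14 and -0.07 in HL-60, with a called difference of the other sign (0.40), and a further one had -0.01 and 0.10. The other probe set of SPRY4 had 0.10 and 0.10. ETV5, an ETS transcription factor that ERK activity induces, had 10.2, 7.95 and 9.55 in MOLM-14 R406 arrays, against 104, 112 and 117 in MOLM-14 DMSO arrays, and 268, 293 and 284 in HL-60 R406 arrays, against 189, 191 and 192 in HL-60 DMSO arrays. It dropped into the dim range in MOLM-14 and rose by 0.56 in HL-60, with no overlap in either line. The phosphatase gene DUSP5 had effects of -2.04 and 0.83, and the Sprouty family inhibitor SPRY4 of -1.40 and 0.44, in MOLM-14 and in HL-60. SPRY2, another Sprouty gene, fell in MOLM-14 (-2.31) and was not called in HL-60 (0.09), and its difference was called (-2.40, adjusted p = 7.76e-09 in limma). DUSP4 and PHLDA1 rose in HL-60 (0.72 and 0.63) from low intensities and were not called in MOLM-14 (-0.16 and -0.08).

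Of 27 immediate early genes measured, 14 rose and 10 fell in MOLM-14, while 16 rose and 0 fell in HL-60 (medians 0.30 and 0.55). The shares over all genes were 29.2% up and 24.2% down in MOLM-14, and 6.32% up and 6.58% down in HL-60. Of the list's members, EGR1, EGR3, IER3, MCL1 and MAFF were called in opposite directions. The other probe set of MAFF had effects of 0.17 in MOLM-14 and 0.37 in HL-60, the same sign in both lines. EGR3, a relative of EGR1, fell in MOLM-14 to a mean of 5.21 under R406, against 23.2 under DMSO, and rose in HL-60 to 11.4, against 7.42, so the change in HL-60 stayed near the dim range. The AP-1 subunit genes FOS and JUN rose in HL-60 by 1.22 and 1.51 and were not called in MOLM-14 (0.32 and 0.43), with called differences of -0.90 and -1.08. By contrast KLF6, ZFP36, which encodes an mRNA decay factor, and SGK1, which encodes a serum-induced kinase, rose in both lines and by more in MOLM-14, SGK1 by 2.95 in MOLM-14 and 1.15 in HL-60. IER5 and KLF10 rose alike, although the difference of KLF10 was called with quantile normalization repeated (0.34). IER5 was measured with 472, 403 and 425 in MOLM-14 R406 arrays, against 234, 224 and 237 in MOLM-14 DMSO arrays, and 227, 219 and 217 in HL-60 R406 arrays, against 148, 129.6 and 129.7 in HL-60 DMSO arrays.

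**Figure D2:**
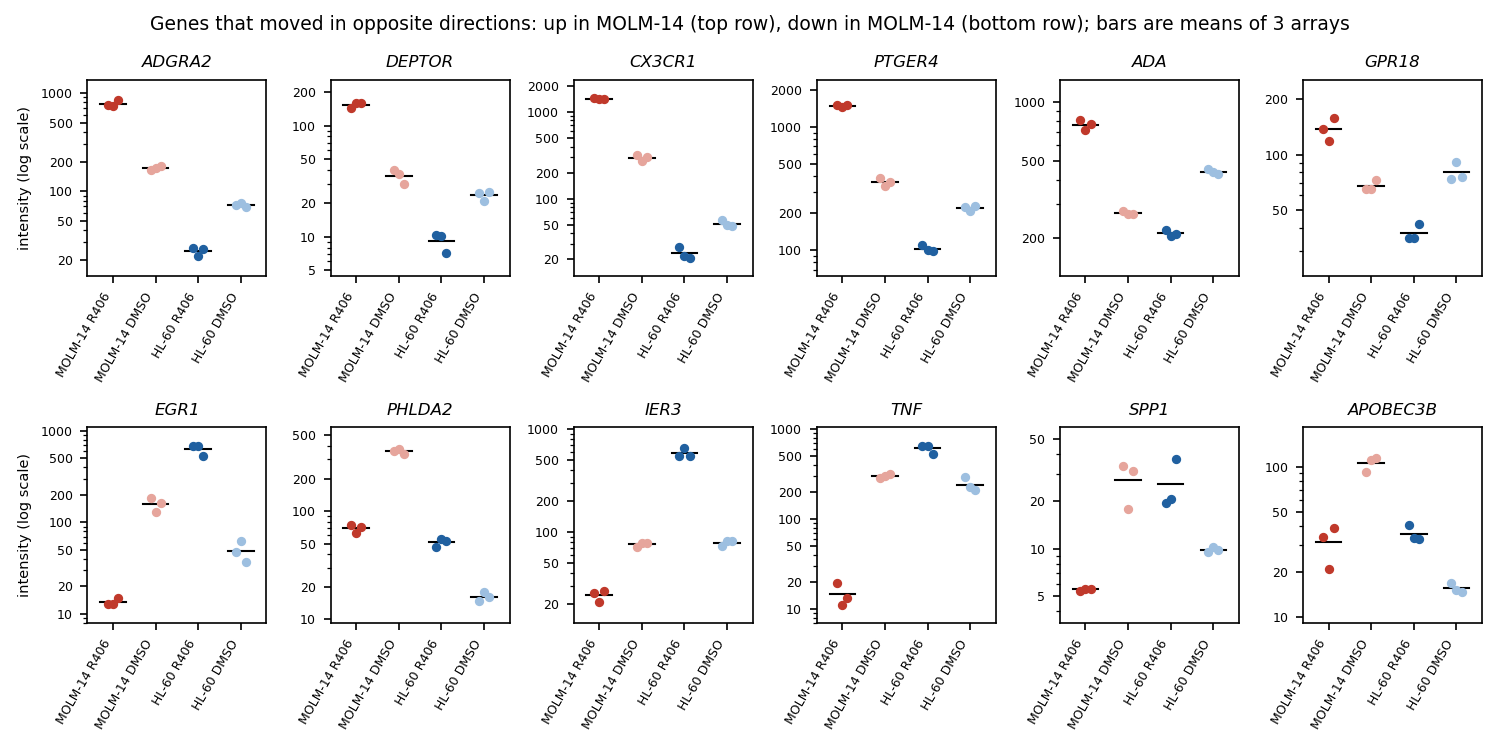
Each panel shows 1 gene, with the intensity of every array on a log scale for MOLM-14 R406, MOLM-14 DMSO, HL-60 R406 and HL-60 DMSO, and black bars for the means of 3 arrays. The top row holds 6 genes that rose in MOLM-14 and fell in HL-60 and the bottom row 6 that fell in MOLM-14 and rose in HL-60. In no panel do R406 and DMSO arrays of a line overlap, as the rule for choosing these genes requires.

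The cytokine gene TNF took the same course. It had 19.5, 11.1 and 13.1 in MOLM-14 R406 arrays, against 286, 300.1 and 319 in MOLM-14 DMSO arrays, and 655, 649 and 533 in HL-60 R406 arrays, against 291, 224 and 209 in HL-60 DMSO arrays. Both lines held similar TNF levels under DMSO, and under R406 the level in MOLM-14 was close to the dim range. The effects were -4.31 ± 0.17 in MOLM-14 and 1.35 ± 0.17 in HL-60 (difference -5.66 ± 0.24, adjusted p = 1.40e-09 in limma). Some other inflammatory genes that rose in HL-60 had little signal in MOLM-14. The monocyte chemokine CCL2 averaged 14.7 ± 1.94 under R406 and 20.2 ± 2.97 under DMSO in MOLM-14, but 2238 ± 232 and 701 ± 82.6 in HL-60, so its call as opposite (-0.43 in MOLM-14, 1.68 in HL-60) rests on a small change at low intensity in MOLM-14. The neutrophil chemokine CXCL8 stood at 17.1 under R406 and 19.7 under DMSO in MOLM-14 and rose in HL-60 (1.17) to 4854, against 2157. The interleukin 1 beta gene IL1B likewise rose in HL-60 (1.92) with a called difference (-2.18). In the NF-kB and inflammatory list, 8 of 26 members rose and 6 fell in MOLM-14, and 9 rose and 0 fell in HL-60 (medians -0.06 and 0.37), and TNF and CCL2 were opposite. The shares in MOLM-14 were near those over all genes (29.2% up and 24.2% down). The NF-kB subunit gene RELB rose in both lines (0.75 in MOLM-14 and 0.43 in HL-60), as did ICAM1, the adhesion receptor, which was alike (0.44 and 0.62).

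Genes of mitosis fell in MOLM-14 and rose slightly in HL-60. All 24 measured members of the mitosis list fell in MOLM-14 and 17 rose in HL-60, so 17 of 24 were called opposite and all 24 had a called difference (medians -1.495 in MOLM-14, 0.35 in HL-60 and -1.86 for the difference). CDC20, the activator of the anaphase promoting complex, had 268, 253 and 283 in MOLM-14 R406 arrays, against 907, 930.5 and 942 in MOLM-14 DMSO arrays, and 1358, 1386 and 1325 in HL-60 R406 arrays, against 1054, 1038 and 997 in HL-60 DMSO arrays. Its groups did not overlap in either line, and the change in MOLM-14 (-1.79 ± 0.07) was several times that in HL-60 (0.40 ± 0.07). The phosphatase gene CDC25C, which activates CDK1, had effects of near-equal size and opposite sign, with 49.9, 43.5 and 42.9 in MOLM-14 R406 arrays, against 84.1, 77.5 and 88.6 in MOLM-14 DMSO arrays, and 111, 99.2 and 103 in HL-60 R406 arrays, against 58.0, 60.8 and 57.2 in HL-60 DMSO arrays. CDK1 itself, the mitotic kinase, changed by -1.59 and 0.35, the kinesin gene KIF23 by -2.02 and 0.54, and the centromeric histone gene CENPA by -1.87 and 0.45, in MOLM-14 and in HL-60. The rise in HL-60 was small, 0.16 to 0.82 over the list, and its calls depend on the estimate of the spread. With all 8 groups of the series in the fit, 3 of 24 were called up in HL-60 instead of 17, while the 24 calls in MOLM-14 and the medians stayed.

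DNA replication genes gave a different pattern, a wide fall in MOLM-14 with little change in HL-60. Of 27 measured members, 26 fell in MOLM-14, and in HL-60 2 rose and 1 fell (medians -2.81 and 0.05, difference -2.73). CCNE2, cyclin E2 of S phase entry, was 1 of the 2 opposite members, with 8.90, 6.96 and 9.29 in MOLM-14 R406 arrays, against 288, 304 and 309 in MOLM-14 DMSO arrays, and 249.7, 222 and 259 in HL-60 R406 arrays, against 154, 162 and 165 in HL-60 DMSO arrays. It was in the dim range in all 3 MOLM-14 R406 arrays, and the difference was -5.61 ± 0.14 (adjusted p = 2.80e-11 in limma). The thymidine kinase gene TK1 was the other, with -2.81 in MOLM-14 and 0.32 in HL-60 (adjusted p = 0.0492 in limma). The opposite members numbered 1 instead of 2 with quantile normalization repeated, with median centring, with all 8 groups in the fit and when any 1 array was left out other than MOLM-14 R406 replicates 2 and 3 and HL-60 DMSO replicate 1. MCM10, a factor of origin firing, showed the pattern of most members, with 9.24, 12.5 and 6.37 in MOLM-14 R406 arrays, against 296, 304 and 290.0 in MOLM-14 DMSO arrays, and 91.6, 89.2 and 85.2 in HL-60 R406 arrays, against 99.8, 93.9 and 89.3 in HL-60 DMSO arrays. The HL-60 arrays of both treatments overlapped, while MOLM-14 lay well below HL-60 under R406 and well above it under DMSO. The helicase gene MCM2 had -3.11 and -0.13, the sliding clamp gene PCNA -1.88 and 0.09, the GINS subunit gene GINS2 -3.76 and 0.04, and the flap nuclease gene FEN1 -3.49 and 0.07, as effects in MOLM-14 and in HL-60. E2F1 was the only member with no call in either line, and UNG, the uracil glycosylase of repair, fell in both, by more in MOLM-14 (-3.02 and -0.39).

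**Figure D3:**
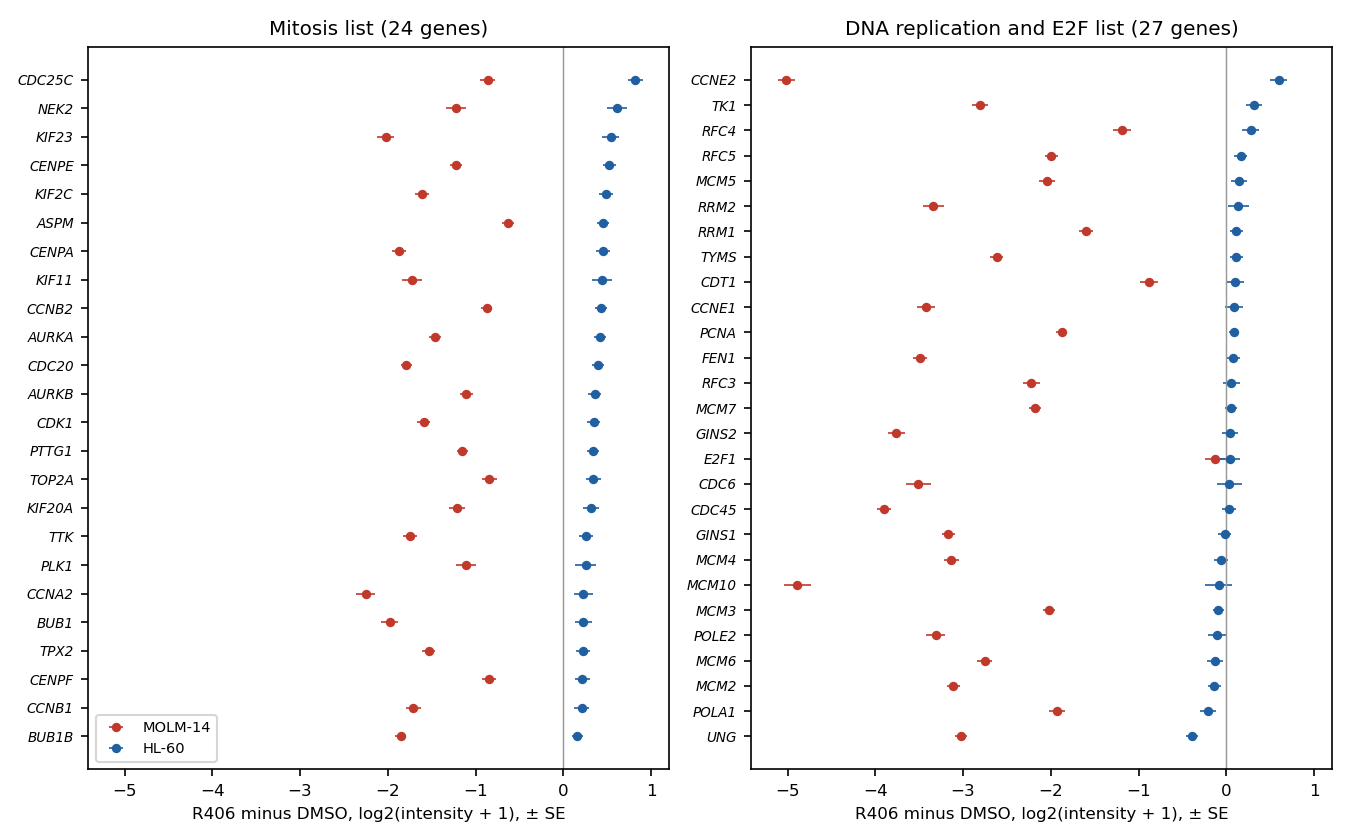
The R406 minus DMSO effect of each measured gene of the mitosis list (left, 24 genes) and of the DNA replication and E2F list (right, 27 genes), in MOLM-14 in red and in HL-60 in blue, on log2 of the intensity plus 1, with bars for ± SE. All 24 mitosis genes lie left of 0 in MOLM-14 and right of 0 in HL-60, whereas the replication genes lie between -0.39 and 0.60 in HL-60 and left of 0 in MOLM-14, E2F1 being the nearest to 0.

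Promoters of these genes are shown because the lists differ in the elements they are known to carry, CCAAT boxes and the cell cycle homology element TTTGAA in genes of mitosis and E2F sites in genes of replication. Each window is the 250 bases before the gene's start in RefSeq's GRCh38.p14, and capitals mark CCAAT and TTTGAA on either strand in CDC20 (chr1:43358731-43358980, plus strand), CCNB2 (chr15:59104896-59105145, plus strand), which encodes cyclin B2, and TOP2A (chr17:40417897-40418146, minus strand), which encodes topoisomerase II alpha.
CDC20: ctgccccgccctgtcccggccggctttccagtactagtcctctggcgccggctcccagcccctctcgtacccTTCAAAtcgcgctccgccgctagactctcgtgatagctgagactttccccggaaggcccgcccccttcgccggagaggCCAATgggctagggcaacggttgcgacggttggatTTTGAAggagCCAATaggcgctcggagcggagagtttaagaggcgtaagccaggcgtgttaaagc
CCNB2: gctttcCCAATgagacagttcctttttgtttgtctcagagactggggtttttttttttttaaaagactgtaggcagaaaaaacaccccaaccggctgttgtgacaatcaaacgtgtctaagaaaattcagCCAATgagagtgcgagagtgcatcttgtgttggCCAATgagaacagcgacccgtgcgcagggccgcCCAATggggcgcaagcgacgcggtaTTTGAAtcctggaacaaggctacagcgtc
TOP2A: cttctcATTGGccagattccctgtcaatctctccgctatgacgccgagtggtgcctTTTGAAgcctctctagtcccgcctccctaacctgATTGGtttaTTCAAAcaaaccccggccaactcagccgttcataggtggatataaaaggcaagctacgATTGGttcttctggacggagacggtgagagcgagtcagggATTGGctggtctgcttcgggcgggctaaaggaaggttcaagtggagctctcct
In GINS2 (chr16:85688955-85689204, minus strand), capitals mark an E2F-type element, any of TTTCGCGC, TTTGGCGC or TTTCCCGC on either strand. This gene had the lowest difference among members of its list whose window holds one, with members on 1 chromosome left out of this choice.
GINS2: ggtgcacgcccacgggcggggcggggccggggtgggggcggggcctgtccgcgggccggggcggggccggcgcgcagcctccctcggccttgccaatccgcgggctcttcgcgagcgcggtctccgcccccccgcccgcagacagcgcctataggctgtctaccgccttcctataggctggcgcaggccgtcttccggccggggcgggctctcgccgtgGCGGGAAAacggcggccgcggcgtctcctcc
CCAAT was found in 22 of 27 windows of the mitosis genes (81.5%), 21 of 32 windows of the replication genes (65.6%) and 32% of all 35116 windows. TTTGAA was found in 12 of 27 mitosis windows (44.4%), 2 of 32 replication windows (6.25%) and 13.3% of all. The E2F-type element was found in 2 of 27 mitosis windows (7.41%), 10 of 32 replication windows (31.2%) and 2.32% of all. Windows existed for 21 of 24 mitosis genes and 24 of 27 replication genes, and a gene can have more than 1. No marked elements overlap in the printed windows. A match is a description of the letters and not a site in use. The effects of these 4 genes in MOLM-14 and in HL-60 were -1.79 and 0.40 for CDC20, -0.87 and 0.43 for CCNB2, -0.84 and 0.34 for TOP2A, and -3.76 and 0.04 for GINS2.

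Among 15 regulators of G1, 7 rose and 7 fell in MOLM-14 and 5 rose and 2 fell in HL-60. Over all genes 29.2% rose and 24.2% fell in MOLM-14, and 6.32% rose and 6.58% fell in HL-60. Cyclin D3, CCND3, fell in MOLM-14 and rose in HL-60 (-0.42 and 0.90, adjusted p of the difference = 1.15e-07 in limma), with 519, 499 and 471 in MOLM-14 R406 arrays, against 678, 661 and 649 in MOLM-14 DMSO arrays, and 889.7, 871 and 925 in HL-60 R406 arrays, against 493, 487 and 453 in HL-60 DMSO arrays. Cyclin D2, CCND2, fell in both (-2.31 and -0.65). The p21 gene CDKN1A rose in both and by more in HL-60 (0.50 and 1.12), although the difference (-0.61 ± 0.20, adjusted p = 0.0235 in limma) lost its call with quantile normalization repeated (-0.47), with a pseudocount of 16 (-0.34) and without any 1 of MOLM-14 R406 replicate 1, MOLM-14 DMSO replicates 2 and 3, HL-60 R406 replicates 2 and 3 and HL-60 DMSO replicate 3 (-0.59 to -0.46). The p57 gene CDKN1C rose in MOLM-14 only (1.85, difference 2.01), and the p19 gene CDKN2D and the retinoblastoma gene RB1 rose alike.

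Several surface receptors rose in MOLM-14 and fell in HL-60. In the list of growth factor receptors, 14 of 19 rose and 1 fell in MOLM-14, while 4 rose and 5 fell in HL-60 (medians 0.41 and 0.02). Over all genes 29.2% rose and 24.2% fell in MOLM-14, and 6.32% rose and 6.58% fell in HL-60. FLT3, KIT, IL6R and INSR were opposite, although the other probe set of IL6R had -0.26 in MOLM-14 and -0.23 in HL-60, the same sign. The opposite members numbered 2 instead of 4 with quantile normalization repeated, with median centring and without any 1 of MOLM-14 R406 replicate 1, MOLM-14 DMSO replicates 2 and 3, HL-60 R406 replicate 1 and HL-60 DMSO replicates 1, 2 and 3. Those falling in HL-60 numbered 3 instead of 5 without MOLM-14 DMSO replicate 3 or any 1 HL-60 array. FLT3, the receptor that carries the activating duplication in MOLM-14 and that R406 also inhibits, had 2240.3, 2336 and 2213 in MOLM-14 R406 arrays, against 915, 926 and 902 in MOLM-14 DMSO arrays, and 56.0, 64.1 and 56.9 in HL-60 R406 arrays, against 110.1, 120.2 and 111 in HL-60 DMSO arrays. It rose 2.47-fold where it was already high and fell 1.92-fold where it was low (difference 2.24 ± 0.10, adjusted p = 1.82e-09 in limma). Its arrays did not overlap in either line, as the rule by which it was chosen for naming requires. KIT, the stem cell factor receptor, had 176, 119 and 136 in MOLM-14 R406 arrays, against 22.1, 15.5 and 15.99 in MOLM-14 DMSO arrays, and 19.5, 18.1 and 18.9 in HL-60 R406 arrays, against 37.5, 38.9 and 34.6 in HL-60 DMSO arrays. The order of the lines for KIT was reversed by R406, since MOLM-14 lay above HL-60 under R406 and below it under DMSO (difference 3.88 ± 0.20, adjusted p = 6.68e-09 in limma). Receptors called in MOLM-14 only included AXL (4.24), the macrophage colony-stimulating factor receptor CSF1R (2.04) and the interleukin 3 receptor subunit IL3RA (1.53), each with a called difference, and both probe sets of AXL rose but by unlike amounts, 4.24 and 0.53. TFRC, the transferrin receptor, fell in both lines (-1.98 and -0.34).

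Among genes that rose in MOLM-14 and fell in HL-60, the smaller of both effects was largest for ADGRA2, an adhesion G protein-coupled receptor known as a Wnt coreceptor. It had 750.1, 733 and 847 in MOLM-14 R406 arrays, against 165, 172 and 179 in MOLM-14 DMSO arrays, and 26.4, 21.9 and 25.4 in HL-60 R406 arrays, against 72.1, 75.6 and 69.5 in HL-60 DMSO arrays. R406 widened a gap between the lines that was already present under DMSO, and both probe sets moved this way (difference 3.69 ± 0.12, adjusted p = 1.73e-10 in limma). The fractalkine receptor CX3CR1 had 1464, 1405 and 1396 in MOLM-14 R406 arrays, against 320.5, 273 and 302 in MOLM-14 DMSO arrays, and 27.4, 21.98 and 20.7 in HL-60 R406 arrays, against 56.8, 49.6 and 47.8 in HL-60 DMSO arrays. Its groups were separate in both lines, as the rule for naming these 12 genes requires. The prostaglandin E2 receptor PTGER4 had effects of 2.05 and -1.09, and the G protein-coupled receptor GPR18 of 1.02 and -1.08, in MOLM-14 and in HL-60. DEPTOR, which encodes an inhibitor of the kinase mTOR, changed by 2.10 in MOLM-14 and -1.28 in HL-60. ADA, adenosine deaminase of purine salvage, had 809, 719 and 767 in MOLM-14 R406 arrays, against 276, 267 and 265 in MOLM-14 DMSO arrays, and 221, 206 and 209 in HL-60 R406 arrays, against 452, 439.5 and 426 in HL-60 DMSO arrays, so that MOLM-14 held the more under R406 and HL-60 under DMSO. TXNIP, the thioredoxin inhibitor that glucose induces, behaved in the same manner with 1.26 and -0.88. LTC4S, the leukotriene C4 synthase gene, NREP and the phosphatase gene DUSP3 completed the 12 genes named in this direction, with differences of 1.98, 1.94 and 2.11.

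The 12 genes named in the other direction were of several kinds beside EGR1, IER3, TNF and DUSP6. S100A9, a subunit of the calprotectin of neutrophils and monocytes, had 13.3, 12.7 and 18.2 in MOLM-14 R406 arrays, against 102, 115 and 117 in MOLM-14 DMSO arrays, and 3279.5, 2891 and 2698 in HL-60 R406 arrays, against 1501, 1367 and 1495 in HL-60 DMSO arrays. It neared the dim range in MOLM-14 and was raised further in HL-60, where it was abundant already (difference -3.87 ± 0.17). PHLDA2, an imprinted pleckstrin homology gene, changed by -2.34 and 1.61, though only 1 of its 2 probe sets moved this way. The osteopontin gene SPP1 changed by -2.07 and 1.24, the tissue factor gene F3 by -1.99 and 1.10, the cytidine deaminase gene APOBEC3B by -1.76 and 1.15, the autophagy regulator gene RUBCNL by -2.14 and 1.10 and the membrane repair gene DYSF by -1.05 and 1.05, in MOLM-14 and in HL-60. GATA2, a transcription factor of stem and mast cell programs, had 22.8, 14.6 and 17.4 in MOLM-14 R406 arrays, against 37.4, 42.9 and 38.1 in MOLM-14 DMSO arrays, and 179, 174 and 196 in HL-60 R406 arrays, against 75.9, 68.2 and 92.6 in HL-60 DMSO arrays. Its groups did not overlap, as the rule for naming these 12 genes requires, and 2 of its 3 probe sets had a difference of this sign, 1 of them called.

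Of 11 MHC class II genes, 9 rose and 0 fell in MOLM-14, and 3 fell and 0 rose in HL-60 (medians 0.94 and -0.11). HLA-DRA, the class II alpha chain, had 561, 499.9 and 518 in MOLM-14 R406 arrays, against 80.4, 70.8 and 80.1 in MOLM-14 DMSO arrays, and 8.64, 9.37 and 9.63 in HL-60 R406 arrays, against 12.2, 11.1 and 11.3 in HL-60 DMSO arrays. The change was large in MOLM-14, whereas the HL-60 values were all in or near the dim range (difference 3.05 ± 0.11). HLA-DMA, the peptide loading chaperone, and CD74, the invariant chain, were opposite too, with 2.69 and -0.39, and 1.21 and -0.37. Of the granulocyte list, 5 of 22 rose and 3 fell in MOLM-14, and 11 rose and 1 fell in HL-60 (medians 0.08 and 0.33). The counts in MOLM-14 were below the shares over all genes (29.2% up and 24.2% down). The formyl peptide receptor FPR1 rose by 0.38 in MOLM-14, where it stayed dim and its arrays overlapped, and by 1.73 in HL-60, and the deiminase gene PADI4 rose in HL-60 only (1.32, difference -1.39). CSF3R, the granulocyte colony-stimulating factor receptor, went the other way, with a rise in MOLM-14 only (2.06, difference 2.00).

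In the monocyte and macrophage list, 14 of 28 rose and 4 fell in MOLM-14, and 8 rose and 4 fell in HL-60 (medians 0.33 and 0.14), but the members differed. The count falling in MOLM-14 was below the share over all genes (24.2%). The other shares over all genes were 29.2% up in MOLM-14, and 6.32% up and 6.58% down in HL-60. CD36, a scavenger receptor, was opposite, with 136, 129.8 and 158 in MOLM-14 R406 arrays, against 28.4, 24.8 and 28.2 in MOLM-14 DMSO arrays, and 8.75, 9.07 and 8.49 in HL-60 R406 arrays, against 14.8, 12.4 and 13.2 in HL-60 DMSO arrays. MNDA, an interferon-inducible nuclear protein of myeloid cells, was opposite in the other direction (-1.31 and 0.34). CD86, a T cell costimulator, rose in both and by more in MOLM-14 (3.16 and 0.56). CD14, the lipopolysaccharide coreceptor, had 6.47, 7.66 and 9.28 in MOLM-14 R406 arrays, against 6.76, 7.53 and 7.31 in MOLM-14 DMSO arrays, and 812, 883 and 864 in HL-60 R406 arrays, against 348, 249 and 241 in HL-60 DMSO arrays. All 6 MOLM-14 arrays were in the dim range, so its called difference (-1.54 ± 0.19) describes a gene measurable in HL-60 only. The summed intensity of 12 fibroblast and epithelial markers was 2316 to 2469 in MOLM-14 R406 arrays, against 3654 to 3922 in MOLM-14 DMSO arrays, and 1660 to 1730 in HL-60 R406 arrays, against 1500 to 1741 in HL-60 DMSO arrays, and most of it came from VIM, the vimentin gene, which myeloid cells also express. That of 12 T and NK cell markers was 674 to 720 in MOLM-14 R406 arrays, against 571 to 646 in MOLM-14 DMSO arrays, and 255 to 275 in HL-60 R406 arrays, against 276 to 304 in HL-60 DMSO arrays, and those of erythroid, megakaryocyte and B cell markers lay between 52.0 and 146 on every array. Their part in the results was not tested.

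In the list of genes for primary granule proteins, which promyelocytes make, most called members fell in each line. In MOLM-14, 6 of 12 fell (MPO, ELANE, PRTN3, AZU1, CTSG and RNASE2) and 3 rose (CFD, MS4A3 and CST7). In HL-60, 10 fell and 0 rose (medians -0.19 in MOLM-14 and -0.78 in HL-60). Over all genes 29.2% rose and 24.2% fell in MOLM-14, and 6.32% rose and 6.58% fell in HL-60. CFD, complement factor D, was opposite, with 3153, 3324 and 3469 in MOLM-14 R406 arrays, against 1326, 1393 and 1482 in MOLM-14 DMSO arrays, and 389.9, 427 and 402 in HL-60 R406 arrays, against 644, 752 and 623 in HL-60 DMSO arrays. MS4A3, a membrane protein of granulocyte progenitors, and CST7, a protease inhibitor, were opposite in the same direction (0.75 and -0.84, and 0.44 and -0.30). The serine protease genes PRTN3, ELANE and CTSG fell in both lines by unequal amounts, unlike CFD, which also encodes a serine protease. Proteinase 3, PRTN3, had 35.6, 44.3 and 34.1 in MOLM-14 R406 arrays, against 343, 372 and 359 in MOLM-14 DMSO arrays, and 154, 155 and 146 in HL-60 R406 arrays, against 797, 755 and 804 in HL-60 DMSO arrays. Its fall was larger in MOLM-14 (-3.21 and -2.36), whereas those of neutrophil elastase ELANE (-1.05 and -1.78) and cathepsin G, CTSG (-0.34 and -2.04), were larger in HL-60, and all 3 differences were called. IRF8, the monocyte lineage transcription factor, fell in both as well and by more in HL-60 (-0.54 and -1.83, difference 1.29 ± 0.09, adjusted p = 7.69e-08 in limma).

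Genes that moved alike mostly changed by less than 1.5-fold. Both effects reached 1.5-fold for 21 of the 194 that rose (0.173% of all genes) and 11 of the 166 that fell (0.0904%), against 29 of the opposite genes up in MOLM-14 (0.238%) and 53 of those down (0.436%). TNFRSF10B, the death receptor DR5, had 788, 727 and 812 in MOLM-14 R406 arrays, against 424, 431 and 476 in MOLM-14 DMSO arrays, and 591, 618 and 593 in HL-60 R406 arrays, against 326, 316 and 291 in HL-60 DMSO arrays. It rose in both lines, by 0.80 ± 0.08 and 0.95 ± 0.08, with no overlap, as the rule for naming it requires. The 95% interval of the difference was -0.37 to 0.09. Its other probe sets were less alike, with 0.43 and 0.20, and 0.03 and 0.42, in MOLM-14 and in HL-60. ID2, an inhibitor of helix-loop-helix factors, had 1494, 1583 and 2098 in MOLM-14 R406 arrays, against 919, 835 and 887 in MOLM-14 DMSO arrays, and 945, 952 and 979 in HL-60 R406 arrays, against 558, 503 and 483 in HL-60 DMSO arrays. It changed by 0.95 and 0.90 (interval of the difference -0.28 to 0.39), from a higher level in MOLM-14. LGALS1, galectin 1, was abundant in all groups, with 5827, 5408 and 5445 in MOLM-14 R406 arrays, against 3350.0, 3147 and 3331 in MOLM-14 DMSO arrays, and 3283, 3188 and 3336 in HL-60 R406 arrays, against 1927, 1789 and 1839 in HL-60 DMSO arrays. The intensities in HL-60 under R406 were close to those in MOLM-14 under DMSO, and the effects were 0.76 and 0.82. Others of the 12 named as rising alike were the tumour necrosis factor ligand TNFSF14 (1.33 and 1.03), the lysosomal sulfatase gene IDS (0.89 and 0.82), the complement regulator CD55 (0.71 and 0.86), the complement C3a receptor C3AR1 (0.67 and 0.82), FILIP1L, BIN2, C1RL, IER5 and the Fc receptor gamma chain FCER1G. The other probe sets of IDS had effects of 0.13 to 0.76 in MOLM-14 and -0.03 to 0.81 in HL-60. FCER1G was dim in MOLM-14 (20.0 ± 2.57 and 10.8 ± 2.48 under R406 and DMSO) and bright in HL-60 (725 ± 31.5 and 433 ± 29.9), and with a pseudocount of 16 its difference became -0.30 and was called (adjusted p = 0.0449 in limma).

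Among the genes that fell alike, the apoptosis inhibitor BCL2 had 219, 254 and 225 in MOLM-14 R406 arrays, against 382, 399.7 and 402 in MOLM-14 DMSO arrays, and 198, 190.0 and 194 in HL-60 R406 arrays, against 368, 347 and 365 in HL-60 DMSO arrays. Its effects were -0.76 ± 0.07 and -0.89 ± 0.07 (interval of the difference -0.09 to 0.34). The other 3 probe sets of BCL2 had effects of -0.68 and -0.48, -0.10 and 0.08, and 0.43 and 0.12, in MOLM-14 and in HL-60. The related survival genes MCL1 and BCL2A1 were opposite instead. MCL1 had 753, 739.9 and 714 in MOLM-14 R406 arrays, against 883, 851 and 881 in MOLM-14 DMSO arrays, and 1068, 1038 and 1092 in HL-60 R406 arrays, against 605, 572 and 577 in HL-60 DMSO arrays, and BCL2A1 changed by -0.78 and 1.41. The differences of MCL1 and BCL2A1 had adjusted p = 2.80e-07 and 2.06e-08 in limma, and the 5 probe sets of MCL1 disagreed in size, with effects from -2.24 to 0.20 in MOLM-14 and 0.23 to 0.87 in HL-60. The growth factor gene CLEC11A had 276, 365 and 322 in MOLM-14 R406 arrays, against 662, 653 and 703 in MOLM-14 DMSO arrays, and 169, 159 and 164 in HL-60 R406 arrays, against 301, 322 and 313 in HL-60 DMSO arrays, with effects of -1.07 and -0.92. SLC7A11, the cystine transporter, changed by -0.83 and -0.64, and the quinone reductase gene CRYZ by -0.95 and -0.74. The others were SYNGR1, ZNF74, BEX1, ARMCX6, the pseudogene FCGR1BP, URI1, the small GTPase gene ARL2 and ABHD14A. Whether the probe set of FCGR1BP also binds transcripts of FCGR1A was not tested. The difference was -0.25 for FCGR1BP and 0.31 for FCGR1A. For several of the alike genes the difference was called under another setting. With probe sets averaged this held for URI1 (-0.34, adjusted p = 0.00998 in limma), SYNGR1 (0.52) and SLC7A11 (-0.33), with quantile normalization repeated for SYNGR1 (0.34), BEX1 (0.38) and TNFSF14 (0.42), with a pseudocount of 16 for C3AR1 (-0.36), and with all 8 groups in the fit for TNFSF14 (0.30). Leaving out 1 array gave it for BEX1 without HL-60 DMSO replicate 1 (0.32), and without MOLM-14 R406 replicate 3 for FCGR1BP (-0.31) and TNFSF14 (0.35). Another probe set of SYNGR1 had effects of 0.85 in MOLM-14 and -0.36 in HL-60.

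**Figure D4:**
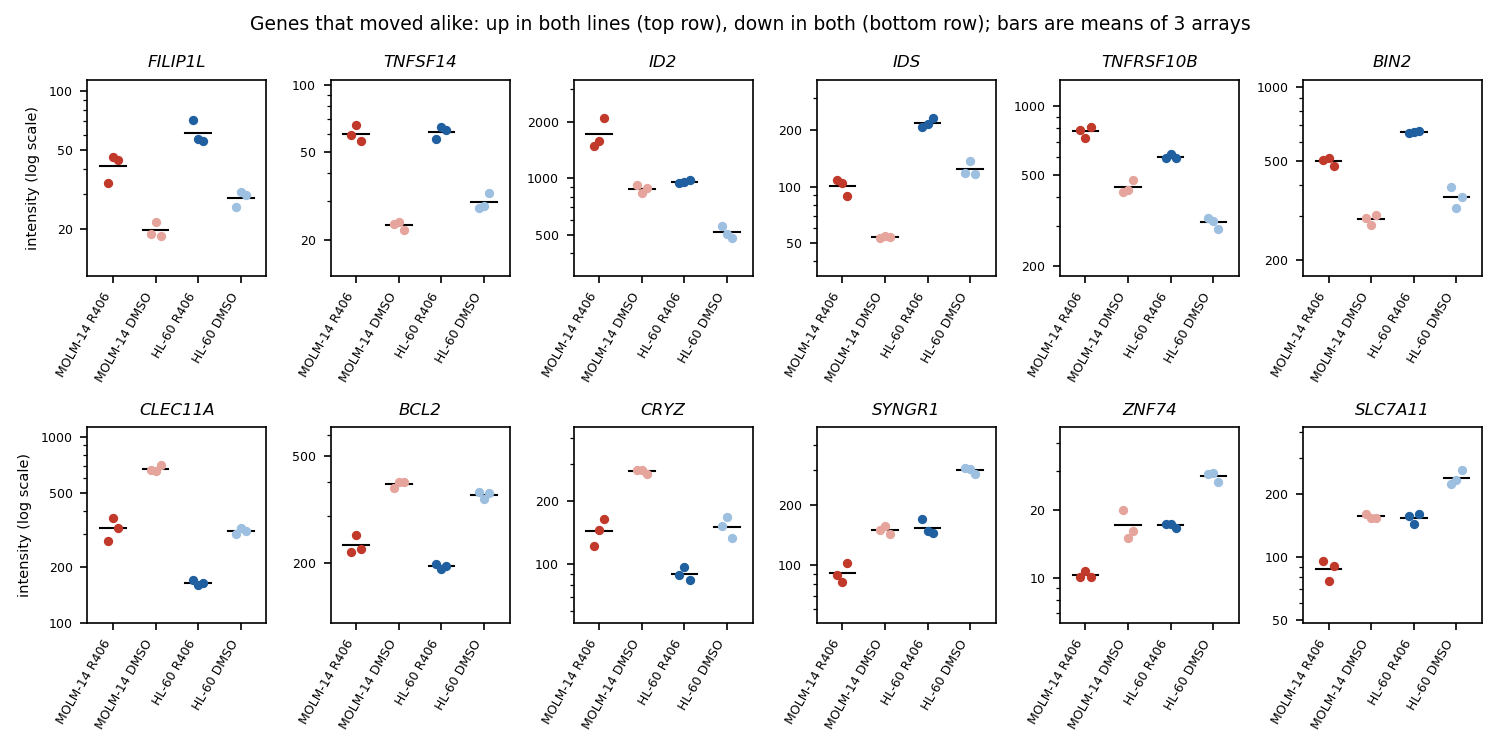
Each panel shows 1 gene, with the intensity of every array on a log scale for MOLM-14 R406, MOLM-14 DMSO, HL-60 R406 and HL-60 DMSO, and black bars for the means of 3 arrays. The top row holds 6 genes that rose alike and the bottom row 6 that fell alike, and the step between R406 and DMSO has a like height in both lines while the levels of the lines can differ.

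In the list of SYK and ITAM signalling genes, 9 of 16 rose and 4 fell in MOLM-14, and 7 rose and 0 fell in HL-60 (medians 0.40 and 0.26), 4 members being alike and 1 opposite (2.96% and 3.23% of all genes). FCER1G, the adaptor LCP2, the phosphoinositide kinase subunit PIK3CD and the kinase LYN rose alike, LYN with 0.44 and 0.38. FGR, another SRC family kinase gene, was the only opposite member (-0.53 and 0.99), with overlapping arrays at low intensity in MOLM-14. The adaptor TYROBP rose in both but by more in MOLM-14 (2.90 and 0.50), and BLNK in MOLM-14 only (3.01, difference 3.06). Among integrins and adhesion genes, 13 of 18 rose and 2 fell in MOLM-14, and 7 rose and 2 fell in HL-60 (medians 0.67 and 0.16). For this list and the SYK list, the shares over all genes were 29.2% up and 24.2% down in MOLM-14. In HL-60 they were 6.32% up and 6.58% down. ITGB2, the common leukocyte integrin beta chain, was the opposite member, with 333, 384 and 347 in MOLM-14 R406 arrays, against 675, 642 and 690.5 in MOLM-14 DMSO arrays, and 2182, 2236 and 2149 in HL-60 R406 arrays, against 1498, 1351 and 1523 in HL-60 DMSO arrays. Its partner ITGAM, the CD11b chain, rose alike (0.51 and 0.71), and its partner ITGAL, the CD11a chain, rose in MOLM-14 only (1.12, difference 1.40).

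MYC and the genes of ribosome assembly moved the same way by different amounts. Of 21 measured members, 18 fell in MOLM-14 and 18 in HL-60, and 17 fell in both with a called difference (medians -2.25 and -0.37, difference -1.94). MYC had 366, 381 and 398 in MOLM-14 R406 arrays, against 3853, 4122 and 4004 in MOLM-14 DMSO arrays, and 4046, 3999 and 3608 in HL-60 R406 arrays, against 5678, 5903 and 6352 in HL-60 DMSO arrays. No arrays of the treatments overlapped, and MYC fell 10.4-fold in MOLM-14 and 1.54-fold in HL-60 (difference -2.76 ± 0.10, adjusted p = 5.30e-10 in limma). NOP16, a ribosome assembly factor, changed by -3.53 and -0.57, spermidine synthase SRM by -2.92 and -0.56, and ornithine decarboxylase ODC1 by -1.66 and -0.46. The 20 cytosolic ribosomal protein genes stood apart from the assembly factors. By the probe set standing for each gene, no member was called for the difference. Effects were -0.06 to 0.25 in MOLM-14, 4 of them called up there. In the same fit, other probe sets of RPL22 (0.53 and 0.76) and RPL13 (0.26 and 0.28) did have called differences. Some alternative settings also called differences among these genes, RPL11, RPL13, RPS27 and RPL10A with a pseudocount of 16 (0.15 to 0.20). The same genes and RPL22 were called with a trended variance (0.15 to 0.20), and RPL13 and RPL22 with probe sets averaged (0.22 and 0.35).

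Stress and biosynthesis genes mostly fell in MOLM-14, with some opposite members. For the lists of this paragraph, the shares over all genes were 29.2% up and 24.2% down in MOLM-14. In HL-60 they were 6.32% up and 6.58% down. In the ATF4 list, 16 of 21 fell and 3 rose in MOLM-14, and 5 fell and 3 rose in HL-60 (medians -1.11 and -0.16). TRIB3, a pseudokinase that ATF4 induces, was opposite, with 40.7, 34.3 and 33.1 in MOLM-14 R406 arrays, against 160.1, 146 and 144 in MOLM-14 DMSO arrays, and 299, 301 and 327 in HL-60 R406 arrays, against 177, 174 and 171 in HL-60 DMSO arrays. The mTOR inhibitor gene DDIT4 was opposite in the same direction (-1.10 and 0.46) and the lipoprotein receptor VLDLR in the other (0.76 and -0.35). ATF4 itself was called in neither line. In the glycolysis and hypoxia list, 16 of 22 fell and 4 rose in MOLM-14, and 4 fell and 3 rose in HL-60 (medians -0.77 and -0.01). The glucose transporter SLC2A3 and the hexokinase HK1 fell in MOLM-14 and rose in HL-60 (-0.39 and 1.27, and -0.80 and 0.45), and the angiogenic factor VEGFA did the opposite (0.51 and -0.41). Another probe set of VEGFA had effects of -0.38 and -0.49, the same sign in both lines. The other probe sets of SLC2A3 had larger effects, -1.38 to -0.72 in MOLM-14 and 1.795 to 2.12 in HL-60. NQO1, a quinone reductase of the antioxidant response, was opposite (-1.13 and 0.51), while HMOX1, heme oxygenase, rose in both (2.83 and 1.13). In the unfolded protein response list, 11 of 15 fell and 1 rose in MOLM-14 and 8 fell in HL-60 (medians -0.62 and -0.36), and the endoplasmic reticulum chaperone genes HSP90B1, DNAJB9 and CANX fell alike, although the difference of HSP90B1 was called in 5 alternative settings (-0.27 to -0.23).

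The counts of the remaining lists are, like those above, to be read against the shares over all genes. These are 29.2% up and 24.2% down in MOLM-14 and 6.32% up and 6.58% down in HL-60. Of 14 cholesterol synthesis genes, 13 fell in MOLM-14 and 3 in HL-60 (medians -1.25 and -0.17), and the squalene epoxidase gene SQLE fell in both (-4.21 and -0.43, difference -3.78). Of 18 aminoacyl-tRNA synthetase genes, 1 rose and 16 fell in MOLM-14 and 5 fell in HL-60 (medians -1.13 and -0.15), and EPRS1 fell alike. Of 18 oxidative phosphorylation genes, 3 rose and 12 fell in MOLM-14 and 2 fell in HL-60 (medians -0.46 and -0.11), and NDUFV1, a complex I subunit gene, fell alike by the 1.5-fold rule, although its difference was called too (-0.60 and -0.31, difference -0.29). That call was lost with quantile normalization repeated (-0.16), with the replicate number as a block and without any 1 of several single arrays. Of 26 interferon response genes, 13 rose and 3 fell in MOLM-14 and 2 rose in HL-60 (medians 0.21 and 0.03), and IRF9, a subunit of the interferon-activated ISGF3 complex, rose in MOLM-14 only (1.61). Of 17 p53 targets, 11 rose and 3 fell in MOLM-14 and 5 rose in HL-60 (medians 0.54 and 0.15), and TIGAR, a regulator of glycolysis, was opposite (-1.15 and 0.59). Of 9 aryl hydrocarbon receptor targets, 5 rose and 1 fell in MOLM-14 and 1 rose in HL-60 (medians 0.54 and 0.09), and the cytochrome P450 gene CYP1B1 rose in MOLM-14 only (2.06). Of 12 STAT5 outputs, 2 rose and 6 fell in MOLM-14 and 2 rose and 1 fell in HL-60 (medians -0.15 and 0.04). In 14 NRF2 antioxidant genes, 4 rose and 7 fell in MOLM-14 and 3 rose and 1 fell in HL-60 (medians -0.07 and 0.04). In 19 stem and progenitor genes, 8 rose and 3 fell in MOLM-14 and 3 rose and 4 fell in HL-60 (medians 0.26 and 0.0003), and MYB, a progenitor transcription factor, fell in both (-0.21 and -0.41). The difference of MYB was not called here but was called in 5 alternative settings (0.20 to 0.56), and its other probe set had effects of 0.58 and -0.34. In 14 myeloid transcription factors, 8 rose and 3 fell in MOLM-14 and 5 rose and 2 fell in HL-60 (medians 0.24 and 0.01), and NFE2 rose alike, although its difference was called with quantile normalization repeated (0.36) and without HL-60 DMSO replicate 3 (0.33).

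**Figure D5:**
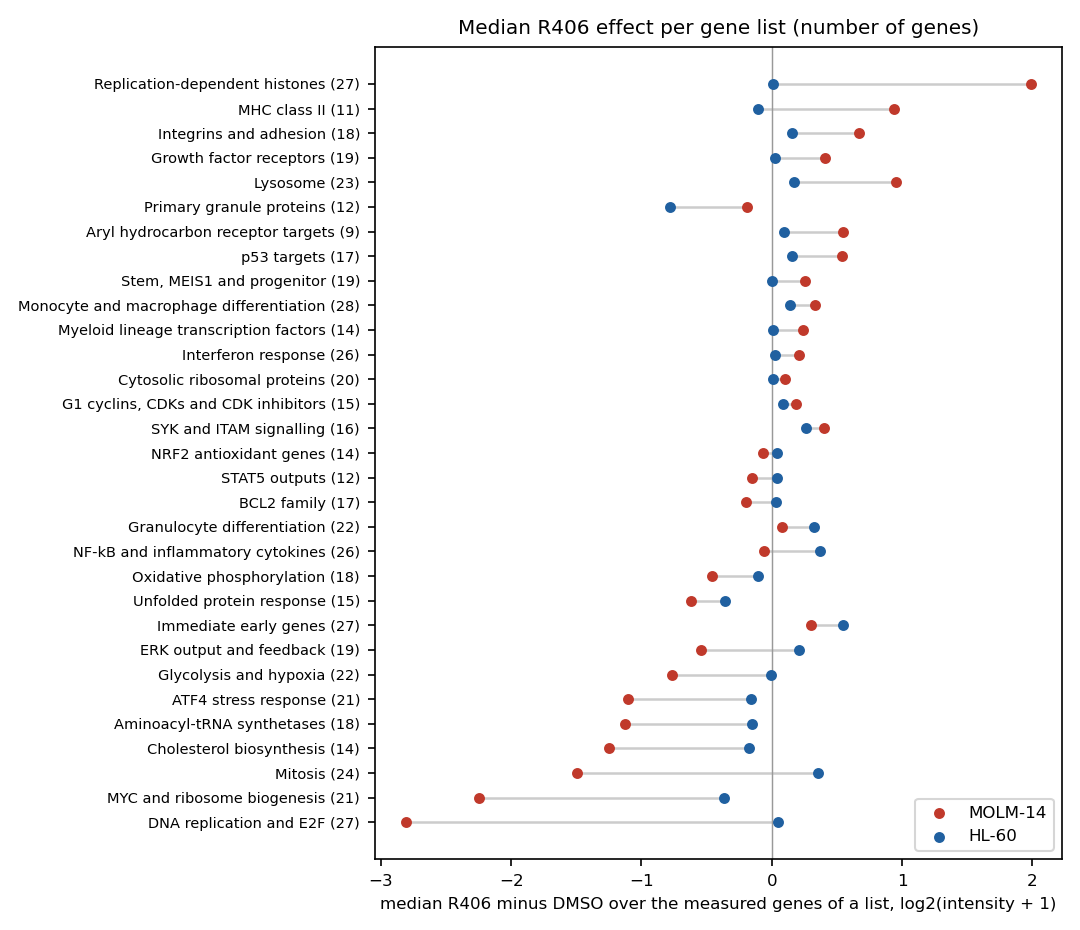
For each gene list, with its number of measured genes in brackets, the red point is the median R406 minus DMSO effect in MOLM-14 and the blue point that in HL-60, on log2 of the intensity plus 1, ordered by the median difference. Histones lie at the top (1.99 in MOLM-14 and 0.01 in HL-60) and DNA replication genes at the bottom (-2.81 and 0.05), and the mitosis list lies on either side of 0 (-1.495 and 0.35).

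Most of the 10 highest differences belonged to genes that moved in MOLM-14 and had no call in HL-60. With a called difference as well, that class held 2052 genes that rose (16.9%) and 1819 that fell (15%). Of 27 replication-dependent histone genes, 24 rose and 1 fell in MOLM-14, and 0 rose and 2 fell in HL-60 (medians 1.99 and 0.01). H2AC6 and H2BC12 were opposite, 1 instead of 2 genes with all 8 groups in the fit and without any 1 of HL-60 R406 replicate 3 and HL-60 DMSO replicates 1 and 3. H2BC12 was measured with 2105, 1938 and 2051 in MOLM-14 R406 arrays, against 125, 144 and 143 in MOLM-14 DMSO arrays, and 336, 306 and 336 in HL-60 R406 arrays, against 503, 528 and 543 in HL-60 DMSO arrays. It was higher in MOLM-14 than in HL-60 under R406 and lower under DMSO (difference 4.57 ± 0.11, adjusted p = 2.80e-11 in limma). H2AC6 had the highest difference of all genes (6.02 ± 0.15), with 1544 under R406 and 31.0 under DMSO in MOLM-14. Histone genes of a type are near-identical, so their probe sets may share transcripts and are not independent. SELENOP, a selenium carrier, averaged 421 ± 93.6 and 10.6 ± 2.304 in MOLM-14 under R406 and DMSO and was dim in all HL-60 arrays (6.21 ± 0.37 and 6.65 ± 0.65), and the prolactin gene PRL and the serpin gene SERPINF1 were likewise dim in HL-60 and rose in MOLM-14, by 4.08 and 3.97. Of 23 lysosome genes, 20 rose in MOLM-14 and 8 in HL-60 (medians 0.96 and 0.17), the saposin precursor PSAP by 1.74 in MOLM-14 (0.08 in HL-60, not called).

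Genes that moved in HL-60, had no call in MOLM-14 and had a called difference numbered 112 up (0.921%) and 97 down (0.797%). Beside IL1B, CXCL8, CD14 and PADI4 above they held the kinase gene PRKCD (0.07 in MOLM-14 and 0.58 in HL-60), the stress gene GADD45A (-0.16 and 0.72) and the integrin alpha 4 gene ITGA4, which fell in HL-60 (0.13 and -0.76).

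For some genes the order of the lines turned, that is, MOLM-14 and HL-60 differed under R406 and under DMSO with opposite signs, both called. MOLM-14 lay above HL-60 under R406 and below it under DMSO for 398 (3.27%), and below it under R406 and above it under DMSO for 473 (3.89%). EGR1 was among those that ended below, -5.44 as MOLM-14 minus HL-60 under R406 and 1.70 under DMSO. MARCKSL1, a MARCKS-related actin regulator, had 31.5, 32.4 and 29.9 in MOLM-14 R406 arrays, against 492, 514 and 513 in MOLM-14 DMSO arrays, and 106, 105 and 98.8 in HL-60 R406 arrays, against 73.9, 73.2 and 75.7 in HL-60 DMSO arrays. The mitotic kinase gene PBK turned in the same sense (-2.07 and 1.498). IL13RA1, an interleukin 13 receptor subunit, turned in the other sense, with 452, 422 and 484 in MOLM-14 R406 arrays, against 72.6, 82.4 and 72.0 in MOLM-14 DMSO arrays, and 120.5, 135 and 139 in HL-60 R406 arrays, against 216, 206 and 230.1 in HL-60 DMSO arrays.

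One measure of RNA integrity moved with the treatment in opposite senses. The 3' to 5' log2 ratio of the ACTB control probe sets was 0.83, 0.82 and 0.82 in MOLM-14 R406 arrays, against 0.52, 0.47 and 0.47 in MOLM-14 DMSO arrays, and 0.74, 0.72 and 0.78 in HL-60 R406 arrays, against 0.91, 0.81 and 0.90 in HL-60 DMSO arrays. It was 0.34 higher under R406 in MOLM-14 and 0.13 lower in HL-60, with no overlap (2-sided exact permutation p = 0.1 each, the smallest that 3 against 3 allows), and the GAPDH ratio differed by 0.078 and -0.011 (exact p = 0.1 and 0.9). Its part in the opposite effects was not tested. The replicates of MOLM-14 R406 were also the most spread, with a median SD of 0.13 on the log2 scale over probe sets, against 0.088 in MOLM-14 DMSO, 0.087 in HL-60 R406 and 0.095 in HL-60 DMSO.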

How the data were processed

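RNA of 12 samples was measured on Affymetrix human genome arrays in plate format. The deposited values are intensities on a linear scale, and the submitters' processing notes name RMA, with its version not given in the sources used here. RMA includes quantile normalization, which forces like distributions on all arrays and hides a change of total RNA. Probe sets were named through the platform annotation. Of 22277, 62 were controls, 568 had several symbols and 1923 none listed, and these were left out. The probe set with the highest mean log2 value over the 24 arrays stood for a gene.

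A model with 4 group means was fitted to log2 of the intensity plus 1 in limma 3.58.1 (R 4.3.3), with 8 residual degrees of freedom, and p-values were Benjamini-Hochberg adjusted over all probe sets. Tables were made with Python 3.11.15 and pandas 2.3.3. On simulated data for the difference over 19724 probe sets, 54% of 1.5-fold and 89% of 2-fold changes were recovered and 0.694% of calls were false. Only 100 probe sets were changed at each fold there, whereas the difference was called for 39.2% of probe sets in the data. The simulated noise was normal, independent and of equal spread in all groups. These rates therefore hold for that setting and need not hold for the results above.

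The genes named were, by rule, the 12 opposite and the 12 alike genes each way with the largest smaller effect and separate arrays, the 10 highest and 10 lowest differences, 5 genes each way whose line order turned, a fixed list, and up to 5 members of each gene list by the p of the difference with all its opposite and alike members. List members named beyond this, such as FOS, JUN, PCNA, UNG, KLF6 and ITGA4, were chosen after their values were seen. Members and lists were chosen with earlier results of these data known. Alternatives were another normalization, a filter on dim probe sets, another pseudocount, all 8 groups in the fit, a trended variance, averaged probe sets, a replicate block and leaving out each array. No batch is given in the labels or headers used here.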

Additional observations from a re-analysis of the deposited data

Results flagged for a closer look

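The R406 effect differed between MOLM-14 and HL-60 by limma's test of the difference itself for 2611 genes that were higher and 2545 that were lower in MOLM-14 (adjusted p under 0.05). Among those called in opposite directions, the 12 named genes that rose in MOLM-14 and fell in HL-60 had log2 differences of 3.88 for KIT, 3.69 for ADGRA2, 3.38 for DEPTOR, 3.36 for CX3CR1, 3.14 for PTGER4, 2.55 for ADA, 2.24 for FLT3, 2.14 for TXNIP, 2.11 for DUSP3, 2.10 for GPR18, 1.98 for LTC4S and 1.94 for NREP. The 12 that fell in MOLM-14 and rose in HL-60 had -7.14 for EGR1, -5.66 for TNF, -5.09 for DUSP6, -4.47 for IER3, -3.95 for PHLDA2, -3.87 for S100A9, -3.31 for SPP1, -3.24 for RUBCNL, -3.09 for F3, -2.91 for APOBEC3B, -2.31 for GATA2 and -2.10 for DYSF. All 3 R406 arrays lay beyond all 3 DMSO arrays in both lines for each of these 24 genes, as the rule for naming them requires. The ACTB 3' to 5' log2 ratio, R406 minus DMSO, was 0.34 in MOLM-14 and -0.13 in HL-60, every R406 array moving one way in MOLM-14 and the other way in HL-60, and this contrast between the lines was not tested.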

How the results depend on the processing

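The difference between the lines was called for 2351 to 2661 genes higher and 2402 to 2570 lower in MOLM-14 when 1 array was left out, and opposite genes numbered 119 to 188 (up in MOLM-14) and 168 to 250 (down). Leaving out 1 array gave 129 to 202 genes rising alike, 103 to 174 falling alike, 124 to 218 rising in both by different amounts and 219 to 376 falling in both by different amounts. With a pseudocount of 16, 266 genes fell alike instead of 166. Of 280 named genes, 248 kept call and sign of the difference in all settings. Over 5589 combinations of a gene and a setting, 62 lost the call and 56 gained it. The called difference had a sign opposite to the reported value in 2, FCER1G with a pseudocount of 16 (-0.30) and URI1 with probe sets averaged (-0.34), both alike genes whose reported difference was near 0. The cause was not tested. By the probe set standing for the gene, SYK gained its call with a pseudocount of 16 (-0.21), with a trended variance (-0.22) and without MOLM-14 R406 replicate 3 (-0.28). Of the calls of the difference, 50.6% were higher in MOLM-14 as deposited, 53.5% with quantile normalization repeated and 48.5% with median centring. With the replicate number as a block, 2498 genes were higher and 2470 lower, 134 and 195 opposite, 153 and 121 alike and 151 and 257 moved the same way by different amounts. Same-numbered arrays within a line did not deviate together (correlations -0.081 to 0.079), and the order of the lines cannot be estimated under that block. Dim signal limits the precision of folds for genes with a mean intensity near or under the lower quartile of 9.18.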
